A study of Mus musculus with 4 samples.

Results

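Vasoactive and autonomic receptor genes of the mouse heart are described here across cell classes and libraries. The set holds 9 genes, chosen by symbol out of the 25906 genes of the count matrices. It comprises the endothelin ligand gene Edn1 and the endothelin receptor genes Ednra and Ednrb, the angiotensin converting enzyme gene Ace and the angiotensin receptor gene Agtr1a, the adrenergic receptor genes Adrb1, Adra1a and Adra1b, and the muscarinic receptor gene Chrm2. All 9 symbols were found, each in a single row of the matrices, and all 9 had enough counts to be compared in at least 1 cell class.

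Blood vessels and the heart muscle are controlled by circulating and local vasoactive peptides and by autonomic nerves. Endothelin 1 is made mainly by endothelial cells and constricts vessels through its A-type receptor on mural cells, while the B-type receptor on endothelial cells clears the peptide and couples to nitric oxide release. Angiotensin converting enzyme makes angiotensin II, sympathetic nerves act on cardiomyocytes through beta 1 and alpha 1 adrenergic receptors, and the vagus acts through the M2 muscarinic receptor, which slows the heart.

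The libraries are single-nucleus RNA sequencing of frozen ventricles from wild-type C57BL/6J mice of both sexes. All mice entered the experiment at 8 weeks of age. The sedentary library pooled 2 hearts of sedentary control mice, and the running library pooled 2 hearts after 16 weeks of voluntary wheel running. The sedentary infarct and running infarct libraries each pooled 4 hearts of mice with the same histories, collected 2 weeks after myocardial infarction surgery, so they are also 2 weeks older. Each group is therefore 1 library from 1 pool (n = 1), no test between groups was possible, and nothing measures the spread between animals. Values are always given in the order sedentary, running, sedentary infarct, running infarct.

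Depth was 32899707, 37533722, 26170995 and 29916572 unique molecular identifiers (UMIs, molecules counted once each), and 5114, 5832, 3124 and 4711 nuclei were kept. Cell classes were rebuilt from marker genes and carry the ending "-like". Cardiomyocyte-like nuclei held 12 of 12 cardiomyocyte markers in each library, and endocardial-like nuclei 9 of 9 endocardial ones. The libraries differed in the depth of some classes, with a median of 8421.5, 8451, 9545 and 3144 UMIs in cardiomyocyte-like and 3466, 3916, 3051 and 1458 in pericyte-like nuclei. The median mitochondrial share of UMIs was 6.23, 10.1, 4.65 and 4.67%, highest in the running library and lower in both infarct libraries, and its part in the results was not tested beyond a 5% limit. The libraries also differed in sex mix, since at least 2 UMIs of 4 Y-linked genes were found in 38.1, 47.4, 23.0 and 12.8% of cardiomyocyte-like and 28.6, 38.4, 16.2 and 22.2% of endocardial-like nuclei. The level of a gene is its UMIs per 1000000 UMIs of the class (CPM). Brackets hold 95% intervals, which measure counting error and nothing else.

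Edn1, Ednrb and Chrm2 differed between libraries in endocardial-like nuclei, so the promoters of these 3 genes are shown first. Each sequence is the 250 bases before the annotated RefSeq start on build GRCm38.p6, read 5′ to 3′ on the gene's strand. Edn1 lies at chr13:42301226-42301475 on the plus strand, Ednrb at chr14:103843702-103843951 on the minus strand and Chrm2 at chr6:36387834-36388083 on the plus strand. Capitals mark matches on either strand to the CCAAT box (CCAAT) and the GC box (GGGCGG) of core promoters.
Edn1: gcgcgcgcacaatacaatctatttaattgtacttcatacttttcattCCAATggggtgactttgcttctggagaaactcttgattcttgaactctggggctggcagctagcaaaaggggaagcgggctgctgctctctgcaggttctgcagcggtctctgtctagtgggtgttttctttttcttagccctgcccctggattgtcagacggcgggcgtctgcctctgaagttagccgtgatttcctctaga
Ednrb: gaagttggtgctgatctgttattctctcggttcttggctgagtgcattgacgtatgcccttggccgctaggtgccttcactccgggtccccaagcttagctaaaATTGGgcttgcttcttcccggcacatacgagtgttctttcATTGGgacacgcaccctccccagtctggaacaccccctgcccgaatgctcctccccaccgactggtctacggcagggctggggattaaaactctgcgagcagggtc
Chrm2: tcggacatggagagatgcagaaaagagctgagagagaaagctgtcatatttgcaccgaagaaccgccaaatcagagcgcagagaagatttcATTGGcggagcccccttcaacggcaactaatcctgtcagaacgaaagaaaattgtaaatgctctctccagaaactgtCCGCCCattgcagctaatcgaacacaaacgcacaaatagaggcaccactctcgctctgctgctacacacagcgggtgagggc
The CCAAT box was matched once before Edn1, 2 times before Ednrb and once before Chrm2. The GC box was matched once, before Chrm2. Among 32536 distinct promoters of the same length, 33.8% hold the letters of the CCAAT box and 33.0% those of the GC box. Other motifs searched on both strands had no match in these 3 windows. They were the TATA box (TATAAA, in 12.3% of promoters), the AP-1 site (TGANTCA, in 6.73%), the GATA site (AGATAA, in 9.97%) and the core of the hypoxia response element (ACGTG, in 16.7%). Of the 9 genes, 7 had a promoter sequence in the table used. Among them, 1 of the 2 Ace promoters had a TATA box match on the strand opposite to the gene, between 25 and 31 bases before its start, and 1 of the 2 Adra1b promoters had an AP-1 match. A match is a run of letters and was not tested for function.

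The 3 adrenergic receptor genes had their highest level in cardiomyocyte-like nuclei in each library, though for Adrb1 in the sedentary library the interval overlapped that of the few smooth muscle-like nuclei. Their thinned shares, the percentage of nuclei with a UMI once each nucleus is cut to 1000 UMIs, were 6.08% for Adrb1, 19.4% for Adra1a and 10.4% for Adra1b in sedentary cardiomyocyte-like nuclei, against 2.29, 0.763 and 0% in macrophage-like nuclei. Macrophage-like nuclei are no empty background for Adrb1, where they held 4.54, 3.65, 5.25 and 5.15 times what their cardiomyocyte RNA would carry (7, 8, 14 and 20 UMIs), nor for Adra1a in the infarct libraries (4.45 and 2.88 times). In vascular endothelial-like nuclei of the sedentary library the thinned shares were 0.252, 0.757 and 0.126%. Agtr1a was highest in cardiomyocyte-like nuclei (173, 135, 118 and 118 CPM) and next in pericyte-like nuclei (82.0, 72.5, 64.0 and 41.1 CPM). In fibroblast-like nuclei Agtr1a stood at 11.2, 8.13, 6.04 and 11.9 CPM and in macrophage-like nuclei at 4.38, 5.30, 7.13 and 9.20 CPM, with overlapping intervals in each library.

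The endothelin genes were spread over the vessel wall and endocardium. Ednra was highest in smooth muscle-like nuclei (292 and 286 CPM, 38 and 45 nuclei) and pericyte-like nuclei (266 and 231 CPM) of the uninjured libraries, with overlapping intervals, and next in cardiomyocyte-like nuclei (205 and 161 CPM). Ednrb was highest in endocardial-like nuclei in each library, with intervals clear of the next class. Edn1 stood at 8.84, 8.46, 9.00 and 7.25 CPM in cardiomyocyte-like nuclei, which serve as its background of free RNA. In the sedentary library Edn1 stood at 87.0 CPM in vascular endothelial-like and 80.6 CPM in endocardial-like nuclei, with overlapping intervals. Ace was highest in fibroblast-like (85.2 CPM) and vascular endothelial-like nuclei (69.0 CPM), also with overlapping intervals.

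**Figure D1:**
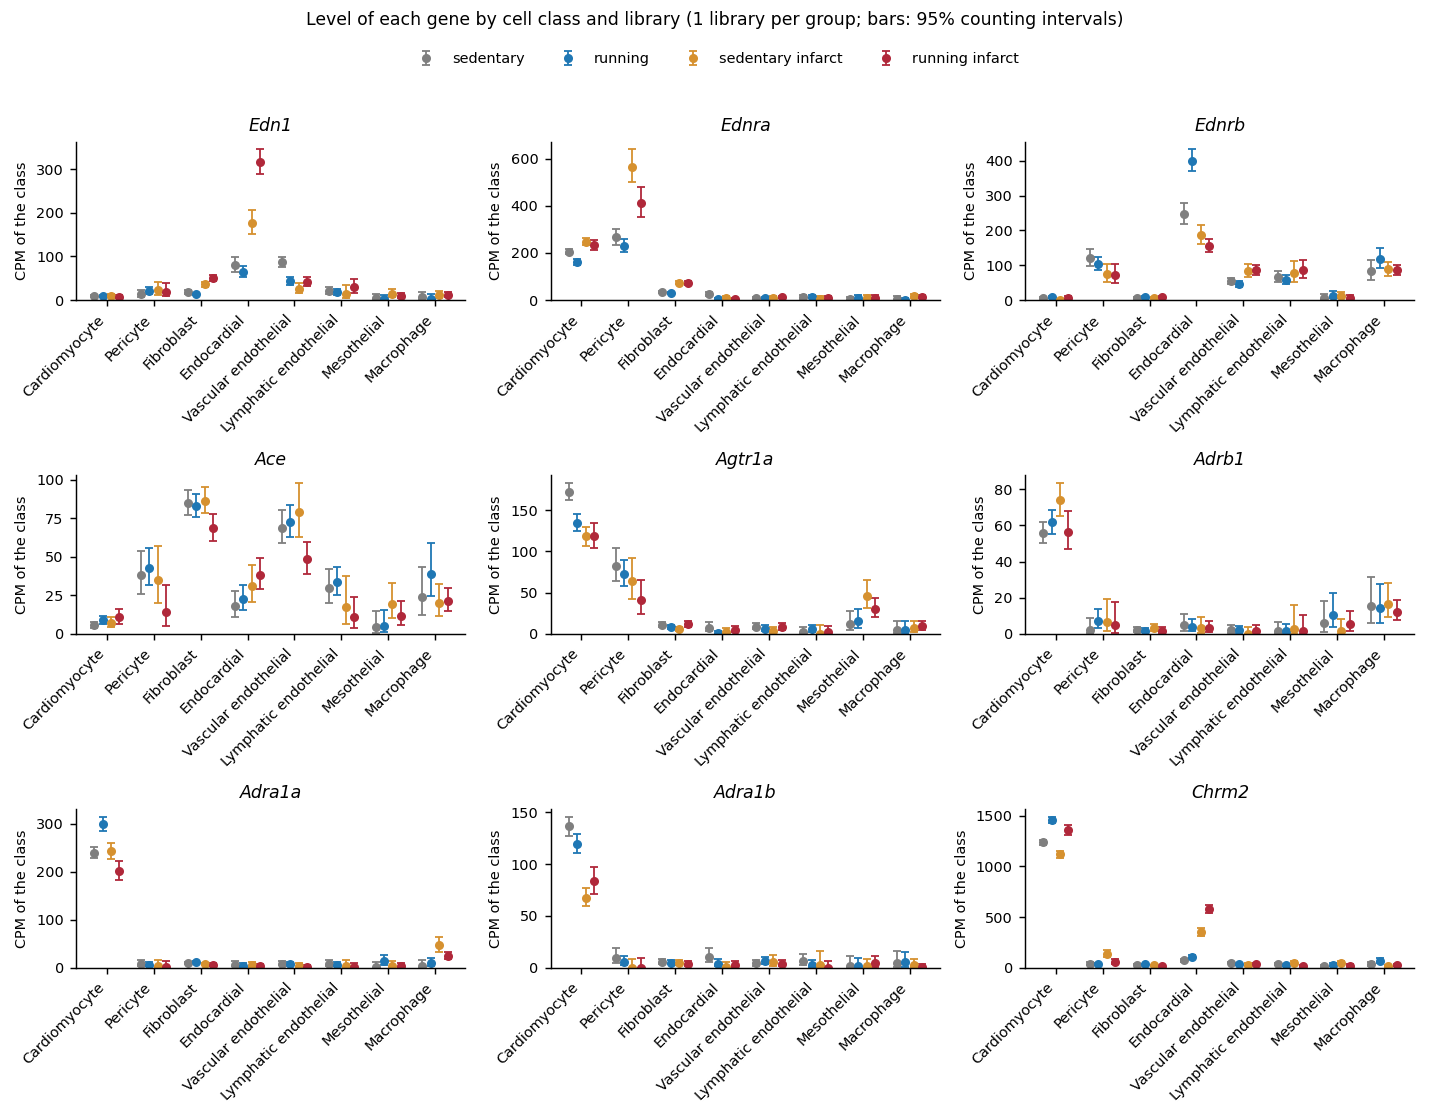
Level of each of the 9 genes (y axis, CPM of the class) in 8 cell classes (x axis) and 4 libraries (colours), 1 library per group, with 95% counting intervals as bars. The 3 adrenergic receptor genes stand out in cardiomyocyte-like nuclei, Ednra in pericyte-like and cardiomyocyte-like nuclei and Ednrb in endocardial-like nuclei, and Chrm2 has a second, lower level in endocardial-like nuclei of the infarct libraries (349 and 581 CPM).

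The first question the design poses is how an infarct altered these genes in hearts of sedentary and of running mice. A gene counted as different when its level differed at least 1.5-fold and at least 100 UMIs were counted over both libraries, in the 8 classes with at least 50 nuclei in each library. Of 72 pairs of gene and class, 20 had enough UMIs in the sedentary infarct and sedentary libraries, and 6 were higher and 4 lower in the infarct library. Over all genes, 13.2% of 42249 pairs were past the same fold in that comparison, 6.1% higher and 7.06% lower. Of 22 pairs measured between the running infarct and running libraries, 7 were higher and 3 lower, beside 15.3% of 48390 pairs for all genes, 6.44% higher and 8.86% lower. Both comparisons are of single libraries. The median log2 ratio was 0.05 and -0.15 over the pairs of the 9 genes, beside -0.00 and -0.04 over all genes, so the set had no common direction.

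**Figure D2:**
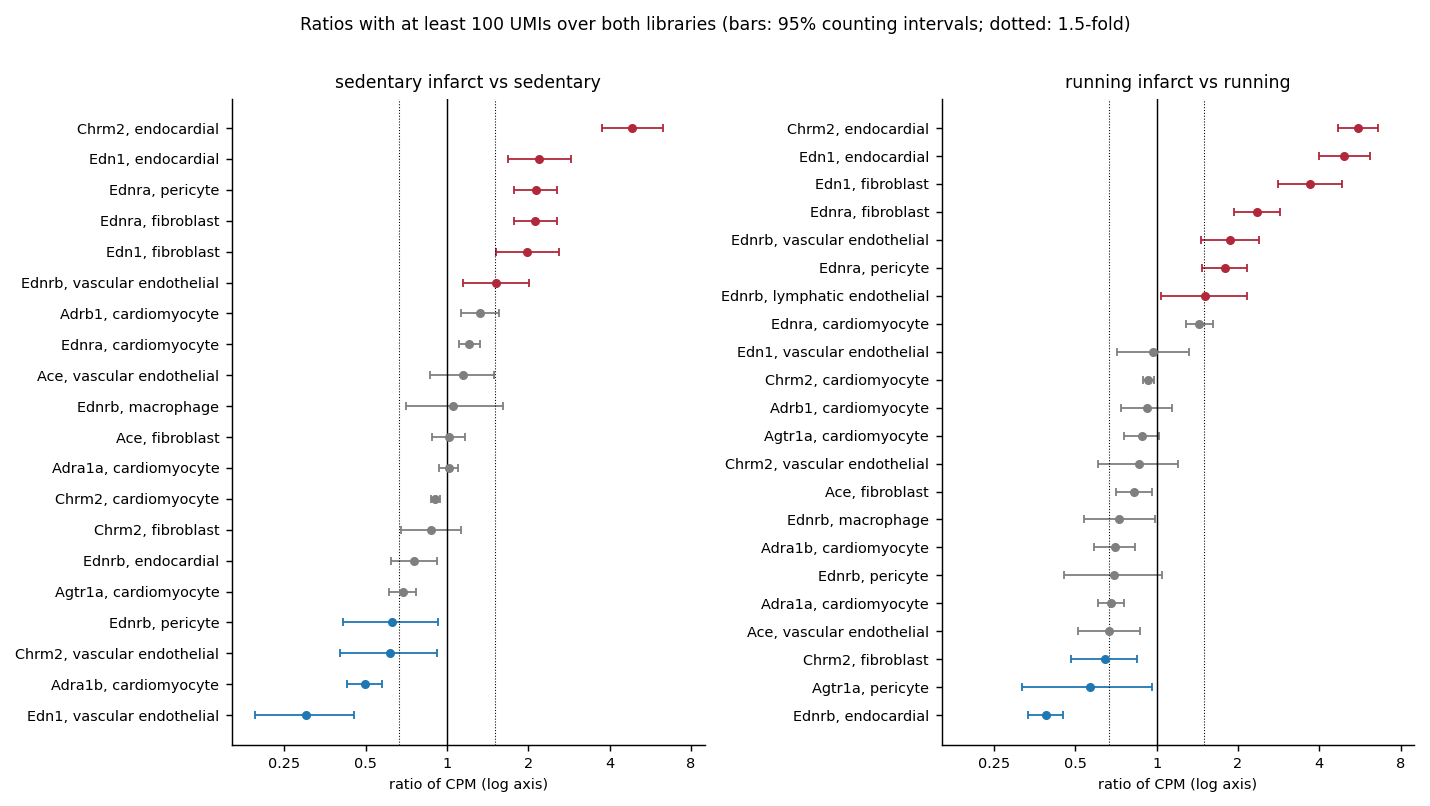
Ratio of CPM between libraries (x axis, log scale) for each measured pair of gene and class (y axis), sedentary infarct over sedentary on the left and running infarct over running on the right, with 95% counting intervals as bars and dotted lines at 1.5-fold. Endocardial-like Chrm2, taken over the whole class, is the highest ratio in both panels (4.84 and 5.56), and the lowest are vascular endothelial-like Edn1 on the left (0.302) and endocardial-like Ednrb on the right (0.389).

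Endocardial-like nuclei were 1 cluster at the resolution used, but at a resolution of 2 they fell mainly into a pair of clusters whose shares differed between libraries, an analysis added after the data were seen. The cluster led by Slco1a4 and Npr3 was 83.4, 83.2, 47.7 and 40.4% of the class, and the cluster led by Nrg1 and Smoc1 was 8.92, 9.20, 43.5 and 54.4%, with 29, 40, 94 and 218 nuclei. Values within each cluster are therefore given beside those of the whole class. The 9 genes were not kept out of the clustering. A cluster led by Calcr and Hecw1, with 90, 85, 11 and 21 nuclei, was vascular endothelial-like at the resolution used. At a resolution of 2 a cluster led by Calcr and Kcnc2, with 115, 118, 30 and 42 nuclei, was named endocardial-like. A cluster with Calcr and Kcnc2 among its leading genes was also endocardial-like at a mitochondrial limit of 5%. Some alternatives below therefore drew both classes differently.

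Edn1, the ligand gene, was higher in endocardial-like and fibroblast-like nuclei of both infarct libraries and lower in vascular endothelial-like nuclei of the sedentary infarct library. For endocardial-like nuclei of the sedentary pair this held for the whole class but within neither of its clusters. In endocardial-like nuclei, the lining of the heart chambers, Edn1 stood at 80.6, 64.3, 177 and 317 CPM, from 85, 99, 166 and 505 UMIs. Both infarct libraries lay above both uninjured ones, and their intervals did not overlap. The ratio was 2.20 [1.68 to 2.89] between the sedentary pair of libraries and 4.94 [3.97 to 6.19] between the running pair. The thinned share of endocardial-like nuclei with an Edn1 UMI was 6.60, 3.01, 8.10 and 16.1%. The 10 nuclei richest in Edn1 held 54.1, 41.4, 55.4 and 25.3% of its UMIs there. Within clusters Edn1 was 72.4, 61.7, 88.4 and 164 CPM in the Slco1a4 cluster and 222, 119, 231 and 397 CPM in the Nrg1 cluster. The sedentary pair did not differ beyond counting error in either (ratios 1.22 [0.765 to 1.91] and 1.04 [0.669 to 1.67]), while the running pair had ratios of 2.66 [1.89 to 3.73] and 3.34 [2.06 to 5.79]. Among Y-negative nuclei alone the class's sedentary ratio was under 1.5-fold (log2 0.54), while the running ratio stayed past it (log2 1.80).

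In fibroblast-like nuclei, which make the scar matrix, Edn1 stood at 18.1, 13.7, 35.8 and 50.5 CPM. The ratios were 1.98 [1.52 to 2.59] in the sedentary and 3.68 [2.82 to 4.84] in the running pair. Among the fibroblast clusters the highest Edn1 level was in the cluster led by Col11a1, Kif26b, Col12a1 and Nox4, at 49.3 and 67.4 CPM in the infarct libraries, where its 265 and 309 nuclei were found. It held fewer than 20 nuclei in each uninjured library. In the cluster led by Gfpt2 and C7, present in all 4 libraries, Edn1 was 20.2, 8.52, 30.9 and 30.01 CPM. There the running interval lay below both infarct ones, while the sedentary interval overlapped them. The sedentary ratio kept its direction in all 12 alternatives. It fell under 1.5-fold among Y-positive nuclei (log2 0.10) and at a mitochondrial limit of 5% (log2 0.50).

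In vascular endothelial-like nuclei the sedentary pair went the opposite way and the running pair hardly differed, with Edn1 at 87.0, 43.2, 26.3 and 42.0 CPM from 208, 114, 27 and 73 UMIs. The sedentary library was the highest and the sedentary infarct library the lowest, 3.31-fold [2.21 to 5.15] below it. The cluster led by Gja5 and Sema3g, genes of arterial endothelium, gave 158 of 208, 100 of 114, 15 of 27 and 23 of 73 of these UMIs, and there Edn1 was 268, 143, 166 and 187 CPM. That cluster was 21.4, 20.8, 8.33 and 5.05% of the class, and its Edn1 intervals in both infarct libraries overlapped that of the sedentary library. The cluster led by Ccdc85a and Ablim3, of low depth and with Edn1 at 18.3, 8.97, 6.34 and 20.6 CPM, was 26.6, 38.4, 59.1 and 76.4% of the class. Without it the sedentary infarct level was still lower (log2 -1.18), and the ratio of the running pair, 0.972 [0.715 to 1.32] with it, was log2 0.62.

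**Figure D3:**
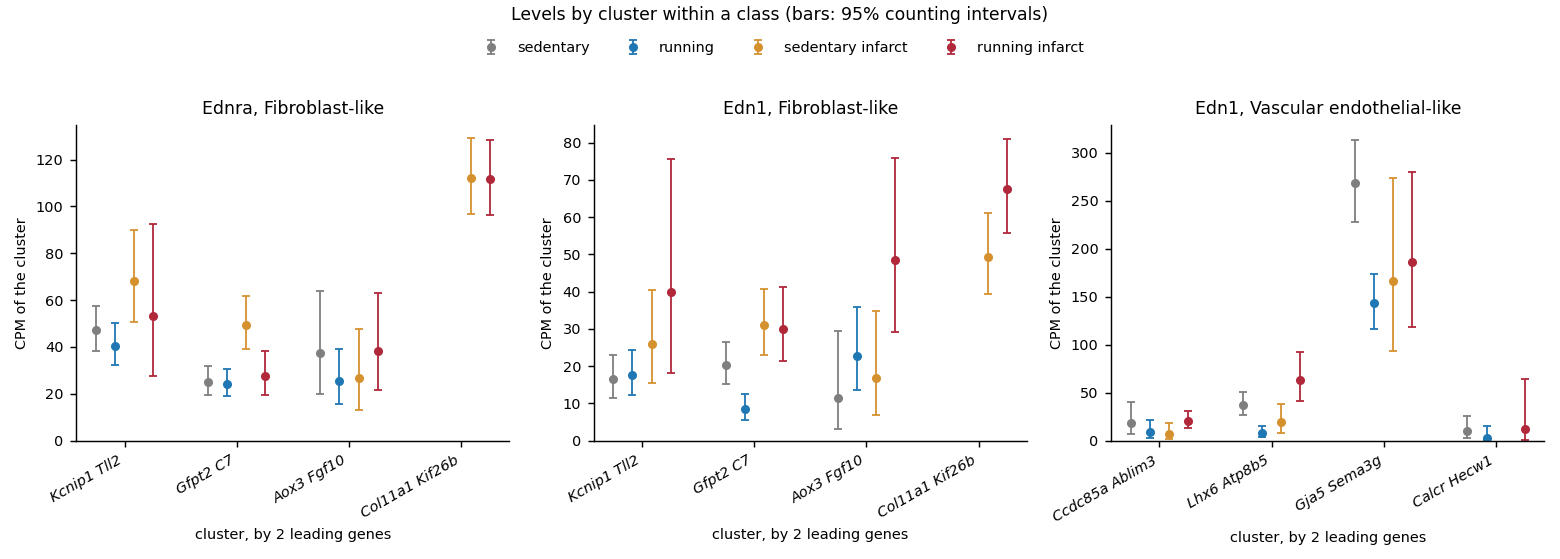
Levels of Ednra and Edn1 in fibroblast-like clusters and of Edn1 in vascular endothelial-like clusters (y axis, CPM of the cluster), each cluster named by 2 leading genes (x axis), for the 4 libraries (colours) with 95% counting intervals as bars, where a cluster has at least 20 nuclei in a library. Ednra is highest in the fibroblast cluster led by Col11a1 (112 CPM in both infarct libraries), and vascular Edn1 is highest in the cluster led by Gja5 (268 CPM in the sedentary library).

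Ednrb, the receptor that clears endothelin from endothelium, was lower in endocardial-like nuclei of the running infarct library and higher in vascular endothelial-like nuclei of both infarct libraries, the latter not in every alternative. Endocardial-like Ednrb stood at 248, 400, 187 and 156 CPM, from 261, 617, 175 and 248 UMIs. The running library was the highest, and the running infarct library lay 2.57-fold [2.21 to 2.99] below it, a difference past 1.5-fold in all 12 alternatives on the whole class. Within clusters the running infarct library was 1.48-fold [1.21 to 1.83] lower in the Slco1a4 cluster, under the line, and 4.68-fold [3.41 to 6.39] lower in the Nrg1 cluster. The sedentary infarct library lay 1.33-fold [1.09 to 1.62] below the sedentary one, which is under the 1.5-fold line, and within clusters that pair had ratios of 0.925 [0.719 to 1.18] and 1.25 [0.7004 to 2.39]. So in endocardial-like nuclei of the running infarct library the ligand gene was higher and the B-type receptor gene lower than in the running library.

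Vascular endothelial-like Ednrb was 54.4, 45.9, 82.7 and 85.8 CPM, higher in both infarct libraries. The sedentary ratio of 1.52 [1.14 to 2.01] turned around without the low-depth cluster led by Ccdc85a (log2 -0.30), which had the highest Ednrb of the class (88.7, 86.1, 133 and 109 CPM), and the running ratio of 1.87 [1.46 to 2.40] shrank to log2 0.31. At a resolution of 2, Ccdc85a, Dach1 and Nav3 were leading genes of a cluster of 862 nuclei at a median of 2478 UMIs. They were also leading genes of a cluster of 825 nuclei at 814 UMIs, so low depth did not mark all nuclei of this kind. Pericyte-like Ednrb was 120, 104, 75.0 and 72.5 CPM, 1.60-fold [1.08 to 2.44] lower in the sedentary infarct library and under the 1.5-fold line in the running pair. Lymphatic endothelial-like Ednrb was 66.7, 58.2, 77.7 and 87.7 CPM, and its running infarct ratio of 1.51 [1.04 to 2.15] was past 1.5-fold in only 5 of 12 alternatives. Macrophage-like Ednrb was 83.3, 118, 88.0 and 85.9 CPM, with no infarct ratio past 1.5-fold.

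Ednra, the constrictor receptor, was higher in pericyte-like and fibroblast-like nuclei of both infarct libraries. In fibroblast-like nuclei it stood at 34.9, 29.98, 74.2 and 70.5 CPM, with ratios of 2.12 [1.77 to 2.56] and 2.35 [1.93 to 2.87]. The Col11a1 cluster had 112 and 112 CPM, while the cluster led by Kcnip1 and Tll2 had 47.3, 40.3, 68.1 and 53.0 CPM and the Gfpt2 cluster 25.1, 24.3, 49.4 and 27.6 CPM. Within the Kcnip1 cluster both pairs of libraries, and within the Gfpt2 cluster the running pair, were under the 1.5-fold line. The sedentary pair of the Gfpt2 cluster was past it. The Col11a1 cluster had the highest Ednra level of the 4 fibroblast clusters in both infarct libraries. Summed pericyte markers in fibroblast-like nuclei, 293, 295, 499 and 452 CPM with all 11 markers detected, and summed smooth muscle markers, 119, 122, 220 and 225 CPM, were also higher in both infarct libraries, and their part in the result was not tested. The sedentary ratio was under 1.5-fold among Y-negative nuclei (log2 0.45).

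Pericyte-like Ednra was 266, 231, 567 and 413 CPM, from 224, 287, 257 and 171 UMIs in 155, 175, 119 and 143 nuclei. The sedentary infarct library was the highest and its interval cleared the other 3. The ratios were 2.13 [1.77 to 2.56] in the sedentary and 1.79 [1.47 to 2.17] in the running pair. Summed pericyte markers in the same nuclei were 6987, 5224, 9714 and 6707 CPM and summed fibroblast markers 5688, 6146, 4690 and 4122 CPM, and their part in the result was not tested. The value depended on how the class was drawn. At a Leiden resolution of 2 the ratios were log2 0.41 and 0.13, with every nucleus weighed the same 0.68 and 0.23, and at a mitochondrial limit of 5% 0.72 and -0.47. At that limit the class held 58, 23, 64 and 29 nuclei, so both libraries of the running pair were under the minimum of 50. At the resolution of 2 the class held 101, 104, 92 and 102 nuclei. A further cluster closest to pericyte markers, with 62, 79, 25 and 36 nuclei, stayed unnamed there for its median doublet score of 0.109. The resolution used for the main values set no such cluster apart. Its part in the ratios was not tested. Pericyte-like Ednrb and Agtr1a were measured in the same class. Smooth muscle-like nuclei, at 24 and 29 in the infarct libraries too few for a comparison, had Ednra at 176 [117 to 255] and 264 [186 to 364] CPM there, below the 292 and 286 CPM of the uninjured libraries with overlapping intervals.

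Cardiomyocyte-like Ednra stood at 205, 161, 248 and 233 CPM, 1.21-fold [1.11 to 1.32] higher in the sedentary infarct and 1.44-fold [1.29 to 1.61] higher in the running infarct library than in the matching uninjured one. Both ratios are under the 1.5-fold line. The sedentary [194 to 216] and running infarct [212 to 254] intervals overlapped. The order of the 4 libraries, with running lowest and sedentary infarct highest, was that of pericyte-like and fibroblast-like Ednra.

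Chrm2, the M2 receptor gene through which the vagus slows the heart, had its highest level in cardiomyocyte-like nuclei, 1237, 1455, 1118 and 1357 CPM. The infarct ratios there were 0.905 [0.8702 to 0.9401] and 0.932 [0.893 to 0.974], small differences that the many UMIs (7974, 7739, 3852 and 2806) resolve in counting only. The thinned share was 60.1, 59.4, 50.1 and 49.0%.

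In endocardial-like nuclei as a class Chrm2 was higher in both infarct libraries, by more than within either of its clusters. It stood at 72.1, 104, 349 and 581 CPM, from 76, 161, 327 and 925 UMIs. Both infarct libraries lay above both uninjured ones with no overlap, and the ratios were 4.84 [3.76 to 6.29] and 5.56 [4.70 to 6.62]. Within the Nrg1 cluster Chrm2 was 311, 293, 567 and 798 CPM, with ratios of 1.82 [1.28 to 2.67] and 2.72 [2.00 to 3.80]. Within the Slco1a4 cluster it was 47.0, 93.8, 91.2 and 119 CPM, with ratios of 1.94 [1.18 to 3.18], from 71 UMIs, and 1.27 [0.891 to 1.78]. The Nrg1 cluster had the higher Chrm2 level in each library, and its share of the class was larger in the infarct libraries. In the Slco1a4 cluster the running library was also 1.99-fold [1.38 to 2.94] above the sedentary one. Cardiomyocyte RNA in the whole class would carry 70.4 and 72.3 CPM of Chrm2 in the sedentary and running libraries. The cluster's sedentary level lay below that amount and its running level not far above it. All 12 alternatives on the whole class kept both ratios past 1.5-fold, with log2 between 2.14 and 2.49 for the sedentary and between 2.18 and 2.86 for the running pair. Y-positive nuclei gave log2 2.21 and 2.67, and Y-negative nuclei 2.49 and 2.33.

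The thinned share of endocardial-like nuclei with a Chrm2 UMI was 4.40 [2.43 to 7.28], 5.32 [3.40 to 7.88], 16.7 [11.9 to 22.4] and 22.5% [18.4 to 27.1], beside 3.82, 4.49, 1.35 and 2.35% in macrophage-like nuclei. Without thinning the shares were 12.9, 15.4, 31.9 and 35.9%, at medians of 3167, 3717, 4065.5 and 3761 UMIs, and those of macrophage-like nuclei 9.93, 9.90, 5.83 and 4.86%, at 2705, 2858, 2975 and 2205.5 UMIs. In the sedentary and running libraries the endocardial-like share was thus close to the macrophage-like one. Summed cardiomyocyte markers in endocardial-like nuclei were 4262, 3740, 3474 and 2528 CPM, lower in the infarct libraries, with all 12 markers detected. Cardiomyocyte RNA in that amount would carry 70.4, 72.3, 49.9 and 44.2 CPM of Chrm2, so the measured level was 1.02, 1.44, 6.98 and 13.2 times that amount.

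Summed endocardial markers in the class, all 9 detected, were 12208, 11676, 13600 and 15670 CPM. The top 10 nuclei held 53.9, 48.4, 44.95 and 34.5% of the endocardial-like Chrm2 UMIs, so the UMIs were unevenly spread over nuclei. Chrm2 in vascular endothelial-like nuclei was 50.6, 37.6, 31.1 and 32.3 CPM and in fibroblast-like nuclei 28.5, 32.0, 24.8 and 20.5 CPM, levels of 0.384 to 0.653 times what their cardiomyocyte RNA would carry, and the 2 ratios past 1.5-fold there were both lower after infarct. Pericyte-like Chrm2 reached 139 CPM in the sedentary infarct library, with 87.3% of the UMIs in 10 nuclei.

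**Figure D4:**
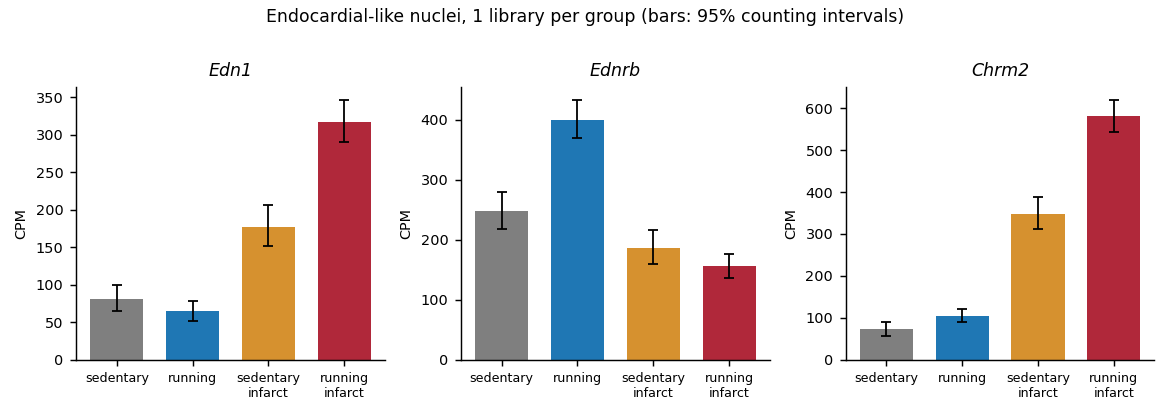
Levels of Edn1, Ednrb and Chrm2 in endocardial-like nuclei (y axis, CPM, from 0) in the 4 libraries (x axis), 1 library per group, with 95% counting intervals as bars. Edn1 and Chrm2 are highest in the running infarct library (317 and 581 CPM), where Ednrb is lowest (156 CPM).

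Adra1b, an alpha 1 adrenergic receptor gene that couples to phospholipase C in cardiomyocytes, had the lowest infarct ratio of the cardiomyocyte receptor genes in the sedentary pair of libraries. In the running pair Adra1a was lower still (0.677 against 0.701). Adra1b stood at 136, 119, 67.7 and 83.6 CPM in cardiomyocyte-like nuclei, from 879, 635, 233 and 173 UMIs. Both infarct libraries lay below both uninjured ones with no overlap. A low-depth cluster led by Xirp2, Nppa and Ankrd1 was 10.7, 15.0, 19.5 and 50.4% of the cardiomyocyte-like nuclei, and without it the infarct ratios of Adra1b were log2 -0.996 and -0.57. The sedentary infarct level was 2.01-fold [1.74 to 2.34] lower, past 1.5-fold in all 12 alternatives, and the running infarct level 1.43-fold [1.21 to 1.70] lower, under the line. Over the 12 alternatives the running ratio ranged from log2 -1.09 to -0.001, past 1.5-fold in 1 and almost absent at the other end. Nuclei with a UMI of the stress genes Ankrd1 or Nppb had 67.7 CPM of Adra1b in the sedentary infarct library and those without had 67.0 CPM, beside 133 and 139 CPM in the sedentary library. The lower Adra1b level was seen in both sets of nuclei, the second of them 69 nuclei with 25 UMIs.

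Adra1a, the other alpha 1 receptor gene of cardiomyocytes, stood at 240, 299, 243 and 203 CPM. It did not differ between the sedentary infarct and sedentary libraries beyond counting error (ratio 1.01 [0.930 to 1.10]), and was 1.48-fold [1.33 to 1.65] lower in the running infarct than in the running library, just under the line. Adrb1, the beta 1 receptor gene that drives rate and contraction, stood at 55.7, 61.7, 73.8 and 56.6 CPM. Its ratios of 1.32 [1.12 to 1.56] and 0.917 [0.736 to 1.14] lay on different sides of 1 and both under the 1.5-fold line. So of the 3 adrenergic receptor genes only Adra1b passed the line, and only in the sedentary pair. Macrophage-like nuclei had Adra1a at 46.4 and 24.5 CPM in the infarct libraries, from 9 and 17 nuclei, beside 4.38 and 8.83 CPM in the uninjured ones, too few UMIs for a comparison.

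**Figure D5:**
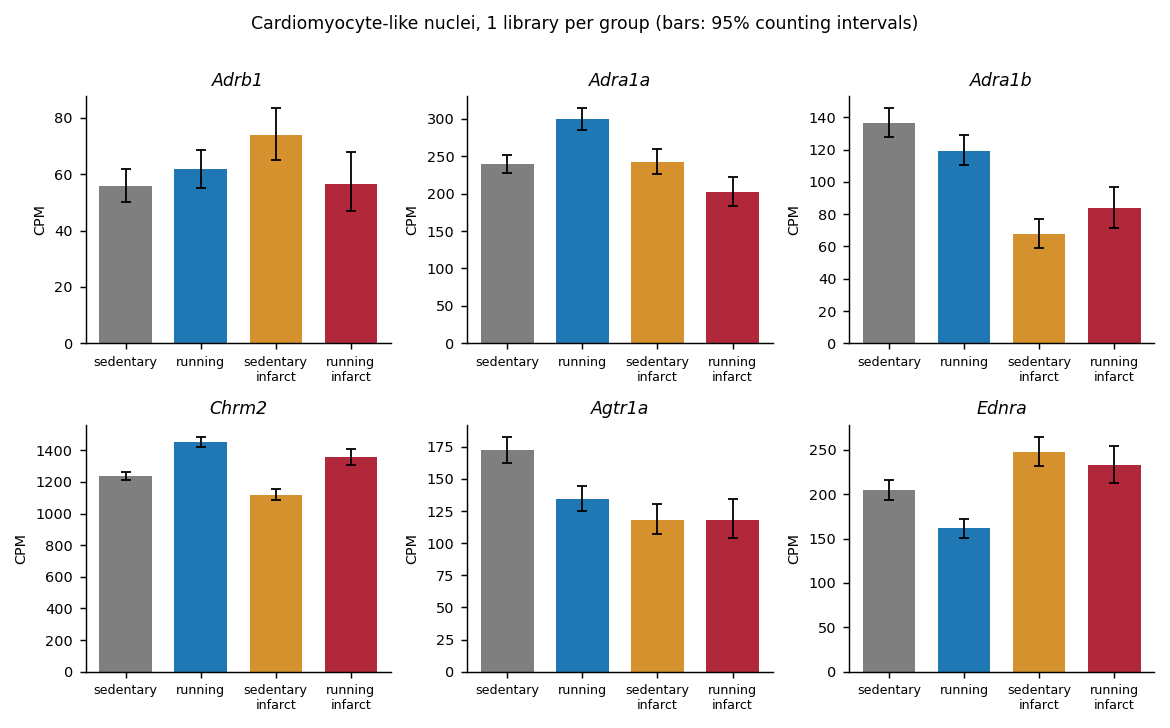
Levels of 6 receptor genes in cardiomyocyte-like nuclei (y axis, CPM, from 0) in the 4 libraries (x axis), 1 library per group, with 95% counting intervals as bars. Adra1b is lower in both infarct libraries (67.7 and 83.6 CPM) than in the sedentary and running libraries (136 and 119 CPM), and Ednra is highest in the sedentary infarct library (248 CPM).

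The angiotensin genes differed less. Agtr1a, the type 1 receptor gene, was 1.46-fold [1.30 to 1.64] lower in cardiomyocyte-like nuclei of the sedentary infarct than of the sedentary library, under the line, and its ratio in the running pair was 0.880 [0.758 to 1.02]. In pericyte-like nuclei it was 1.76-fold [1.04 to 3.16] lower in the running infarct library, from 17 UMIs against 90. Mesothelial-like nuclei, the outer lining of the heart, had Agtr1a at 12.5, 15.6, 46.2 and 30.3 CPM, from 6, 9, 31 and 28 UMIs, below the minimum for a ratio. Reads of its close paralog Agtr1b, which had 28 UMIs in all, can be hard to tell from those of Agtr1a.

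Ace, which turns angiotensin I into angiotensin II, stood at 85.2, 83.0, 86.5 and 68.5 CPM in fibroblast-like and at 69.0, 72.5, 78.8 and 48.4 CPM in vascular endothelial-like nuclei. No infarct ratio of Ace passed 1.5-fold, the nearest being 1.498-fold lower in vascular endothelial-like nuclei of the running pair. That ratio was past 1.5-fold lower in 6 of 12 alternatives, with log2 -1.06 among Y-positive nuclei. At a mitochondrial limit of 5% its direction turned (log2 1.87), but the class itself changed there. The cluster led by Gja5 and Sema3g stayed unnamed at that limit and was left out of the class. The running library then held fewer vascular endothelial-like nuclei than the minimum of 50. The part of these changes in the turn was not tested. In the Gja5 cluster Ace was 148, 156, 166 and 170 CPM with overlapping intervals, while that cluster's share of the class was lowest in the running infarct library. In the Col11a1 cluster of fibroblasts Ace was 51.6 and 46.5 CPM, beside 107 and 95.6 CPM in the Gfpt2 cluster of the same libraries. The infarct cluster with the highest Ednra had the lowest Ace of the 4 fibroblast clusters in both infarct libraries.

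The second question is how the libraries of running and sedentary mice differed. In uninjured hearts, 25 pairs were measured and 1 was higher and 1 lower in the running library, beside 5.68% of 48656 pairs over all genes, 3.43% higher and 2.25% lower. Their median log2 ratio was -0.19, beside 0.00 for all genes. Ednrb was 1.62-fold [1.40 to 1.88] higher in endocardial-like nuclei of the running library, and 1.43-fold [1.22 to 1.67] higher within the Slco1a4 cluster, which held most of them. In the Nrg1 cluster it was 475 against 125 CPM, from 68 and 14 UMIs. The class ratio was log2 1.38 among Y-positive nuclei, and under 1.5-fold among Y-negative nuclei (0.25) and with every nucleus weighed the same (0.52). Edn1 was 2.01-fold [1.59 to 2.55] lower in vascular endothelial-like nuclei of the running library, and in the Gja5 cluster it was 268 CPM against 143 CPM at nearly the same share of the class. Among Y-negative nuclei the class ratio was just under the line (log2 -0.58).

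In infarcted hearts, 18 pairs were measured and 3 were higher and 1 lower in the running infarct than in the sedentary infarct library, beside 6.42% of 40328 pairs over all genes, 2.98% higher and 3.45% lower. Endocardial-like Chrm2 was 1.67-fold [1.47 to 1.90] and endocardial-like Edn1 1.79-fold [1.502 to 2.15] higher. Vascular endothelial-like Edn1 was 1.60-fold [1.02 to 2.59] higher, from 73 against 27 UMIs, and vascular endothelial-like Ace 1.63-fold [1.19 to 2.24] lower. Within the Slco1a4 and Nrg1 clusters the Chrm2 ratios were 1.30 [0.820 to 2.10] and 1.41 [1.23 to 1.61], under the line, and those of Edn1 1.86 [1.20 to 2.93] and 1.72 [1.40 to 2.13]. On whole classes, Chrm2 was past 1.5-fold in all 12 alternatives, Edn1 of endocardial-like nuclei and Ace in 11 and Edn1 of vascular endothelial-like nuclei in 7. Cardiomyocyte-like receptor genes all stayed under the line in both running comparisons. These comparisons share libraries with the infarct comparisons above and are not independent of them.

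Other genes of the same pathways were described from 6 lists with 90 genes. Of the adrenergic list, Adra2a, an alpha 2 receptor gene, had 2 UMIs over all nuclei and Adra1d, the remaining alpha 1 receptor gene, had 34, too few for a comparison. Of the endothelin list, Edn2 and Edn3 had 4 and 9 UMIs, so Edn1 was the endothelin gene counted. Ece1, the enzyme that releases active endothelin, was 1.88-fold [1.70 to 2.08] lower in fibroblast-like nuclei of the sedentary infarct library (128 against 240 CPM), the only pair of the list past 1.5-fold among 6 in that comparison. In the running pair fibroblast-like Ece1 had a ratio of 1.04 [0.935 to 1.16], and the running library was 1.58-fold [1.45 to 1.73] below the sedentary one. Vascular endothelial-like Ece1 was 1.58-fold [1.35 to 1.85] lower in the running infarct than in the running library. Shares over all genes for the lists below are those given above, 6.1% higher and 7.06% lower in the sedentary and 6.44% higher and 8.86% lower in the running infarct comparison, with medians of log2 -0.00 and -0.04. The renin-angiotensin list had no higher and 8 lower of 27 pairs in the sedentary and no higher and 10 lower of 28 in the running infarct comparison (medians log2 -0.08 and -0.31).

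Among its members, Mme, the gene of neprilysin, which degrades vasoactive peptides, was 2.85-fold [2.33 to 3.50] and 4.82-fold [3.67 to 6.43] lower in fibroblast-like nuclei and 2.16-fold and 1.94-fold lower in cardiomyocyte-like nuclei after infarct. Nr3c2, the mineralocorticoid receptor gene, was 1.62-fold and 1.77-fold lower in fibroblast-like and 2.12-fold and 1.92-fold lower in macrophage-like nuclei. Enpep, which degrades angiotensin II, was 4.57-fold [2.91 to 7.39] and 2.93-fold [2.11 to 4.11] lower in mesothelial-like nuclei. Ren1 and Agt, the genes of renin and angiotensinogen, had 0 and 19 UMIs in all.

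The muscarinic list had 2 higher and 4 lower of 13 pairs in the sedentary and 1 higher and 4 lower of 14 in the running infarct comparison (medians log2 -0.13 and -0.30). Chrm3, the M3 receptor gene, was 2.14-fold [1.88 to 2.43] and 2.04-fold [1.80 to 2.33] lower in fibroblast-like nuclei. In endocardial-like nuclei Chrm3 stood at 2400, 2715, 2192 and 2418 CPM, with infarct ratios of 0.913 [0.861 to 0.968] and 0.891 [0.852 to 0.931]. Both Chrm3 ratios were under the 1.5-fold line and below 1, where both Chrm2 ratios were above it.

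The list of coupling and desensitisation genes had 10 higher and 11 lower of 108 pairs in the sedentary and 15 higher and 9 lower of 118 in the running infarct comparison (medians log2 0.03 and 0.05). Rgs2, which dampens Gq signalling, was 2.15-fold [1.51 to 3.12] and 2.72-fold [1.83 to 4.20] lower in cardiomyocyte-like nuclei. Gnao1, a G-protein subunit gene, was 2.46-fold [1.93 to 3.14] higher there in the sedentary pair, and Plcb1, a phospholipase C gene downstream of Gq, 2.24-fold [1.88 to 2.66] higher in the running pair. Grk5, a receptor kinase gene, was 1.71-fold [1.57 to 1.86] higher in vascular endothelial-like nuclei of the running pair.

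The list of other vasoactive receptors had 6 higher and 13 lower of 47 pairs, and 4 higher and 15 lower of 55 (medians log2 -0.23 and -0.19). Gucy1a1 and Gucy1b1, the subunits of the nitric oxide receptor, were higher in fibroblast-like nuclei. Gucy1a1 was 4.86-fold [4.12 to 5.76] and 6.63-fold [5.74 to 7.69] higher, and Gucy1b1 2.82-fold [2.44 to 3.28] and 2.94-fold [2.54 to 3.41] higher. S1pr1, a sphingosine phosphate receptor gene of endothelium, was 3.32-fold [2.60 to 4.28] lower in endocardial-like nuclei of the running pair. Hrh1, the histamine H1 receptor gene, was 2.45-fold and 2.63-fold lower in macrophage-like nuclei.

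The genes whose level most resembled each of the 9 were sought over 32 profiles, 8 classes in each of 4 libraries, among 10656 genes, as Pearson's r of log2(CPM + 1). The profiles share libraries, so r is a description only. For the endothelin genes these were Smad7 (r = 0.879) for Edn1, Pakap (0.929) for Ednra and Tal1 (0.921) for Ednrb. For Ace it was Atp8b1 (0.872) and for Agtr1a Cacnb2 (0.879). For the autonomic receptors they were Prune2 (0.895) for Adrb1, Ivns1abp (0.911) for Adra1a, Kcnip2 (0.926) for Adra1b and Ppp1r14c (0.9098) for Chrm2. The next in order were Bmp6 (0.841) for Edn1, Rbpms2 (0.903) for Ednra, Tbkbp1 (0.914) for Ednrb, Emp1 (0.837) for Ace, Fgf1 (0.872) for Agtr1a, Sesn1 (0.889) for Adrb1, Tnni3k (0.9097) for Adra1a, Usp28 (0.901) for Adra1b and Pde1c (0.890) for Chrm2.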

How the data were processed

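Raw UMI counts per gene and barcode were deposited by the authors, 1 matrix per library. Nuclei were sorted on a Hoechst stain and libraries made with a 10x Genomics 3' kit, per the labels' protocols. Cell Ranger 7.1 and build GRCm39 are named in the submitters' processing notes. The counting of introns and strand is not given in the sources used here. In an older annotation (GENCODE vM21) Chrm2, Ace, Edn1 and Ednra overlap a gene on the other strand that the matrices do not list.

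Barcodes were kept from 300 detected genes upward and up to 20% mitochondrial UMIs. Scrublet's automatic threshold (scanpy 1.11.5) called 0 doublets, so the highest scores were removed at 0.8% per 1000 barcodes (228, 301, 82 and 192). Among 19760 barcode sequences, 46 occur in more than 1 library. The 4 libraries were clustered together without integration (3000 variable genes, 40 components, 15 neighbours, Leiden resolution 1). A cluster was named from 18 marker lists if its mean log2 excess was at least 1 and at least 3 markers were detected in 10% of its nuclei. Naming also failed where markers of a different cell type outnumbered its own among the 10 leading genes, or where depth was low and no own marker led. Clusters with a median doublet score of at least 0.1 stayed unnamed, as did a cluster with at least 3 cycling genes among its 10 leading genes, both rules set after clusters were seen. The unnamed nuclei numbered 1002, 1297, 554 and 918, and held 10354705, 10675488, 10955796 and 13580488 UMIs that were not mitochondrial. Of each gene's UMIs in kept nuclei, named nuclei held between 54.7% (Ednrb) and 72.2% (Adra1b). One unnamed cluster of low depth, led by Comp and Ccn5 and closest to fibroblast markers, had 25, 32, 96 and 278 nuclei. It is not part of the fibroblast-like class. Counts were summed per class and library and divided by the class total without the 37 mitochondrially encoded genes. Intervals are exact Poisson for CPM, exact conditional binomial for ratios and exact binomial (Clopper-Pearson) for shares. UMIs carry molecular identifiers, so intervals cover counting error only. No test was run, because each group has 1 library.

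The 9 genes, the lists and the alternatives were chosen with earlier results of these data known. Named genes are the 9, at most 3 other pathway genes per list, class and comparison whose interval lay wholly beyond 1.5-fold (a selection of which is printed) and the 2 genes most like each member, with at least 500 UMIs. Levels of Adra2a, Adra1d, Agtr1b, Edn2, Edn3, Ren1, Agt and of Chrm3 in endocardial-like nuclei were added after their values were seen. The ratio calculation was tested on simulated data. Some list results are not reported here.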

Additional observations from a re-analysis of the deposited data

Results flagged for a closer look

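For 3 pairs the ratio of running to sedentary lay on opposite sides of 1 in uninjured and infarcted hearts, with counting intervals that exclude 1 in both. Cardiomyocyte-like Adra1a was 1.25 times the sedentary level in the running library and 0.834 times the sedentary infarct level in the running infarct library. Cardiomyocyte-like Adra1b had ratios of 0.876 and 1.24, the reverse order. Vascular endothelial-like Edn1 had ratios of 0.497 and 1.60. These differences between ratios were not tested, since each group is 1 library. Among Y-negative nuclei the Adra1a ratio in uninjured hearts was log2 -0.18, and among Y-positive nuclei the Adra1b ratio in infarcted hearts was log2 -0.34, so neither contrast held in every split. Vascular endothelial-like Edn1 kept both directions in the 12 alternatives run.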

How the results depend on the processing

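Of 26 pairs past 1.5-fold, 24 kept their direction and 10 stayed past the line in all 12 alternatives. Directions turned for vascular endothelial-like Ednrb in the sedentary infarct comparison without low-depth clusters (log2 -0.30). They also turned for pericyte-like Ednra in the running infarct comparison at a mitochondrial limit of 5% (log2 -0.47). The latter rests on 23 running and 29 running infarct nuclei, under the minimum of 50. Counts of pairs past the line moved as follows. Neither the pairs measured nor the shares over all genes at these settings are given here, so these counts cannot be set against all genes. Running against sedentary (2) gave 4 at the 5% limit, 4 in Y-positive nuclei, 1 with nuclei weighed the same, 10 and 1 at minimums of 20 and 500 UMIs and 1 at 2-fold. Sedentary infarct against sedentary (10) gave 6, 4, 23, 2 and 6 at the 5% limit, in Y-positive nuclei, at 20 and 500 UMIs and at 2-fold. Running infarct against running (10) gave 27, 3 and 5 at 20 and 500 UMIs and 2-fold. Running infarct against sedentary infarct (4) gave 2 without low-depth clusters and 16, 2 and 0 at 20 and 500 UMIs and 2-fold. The causes were not tested, beyond the fewer or more pairs that a minimum or a split leaves. Leaving out the non-cardiomyocyte nuclei richest in cardiomyocyte markers, chosen after seeing the data, gave 3, 8, 10 and 3 pairs in the same order of comparisons. No paired analysis was possible because each group has 1 library, which also prevents leaving out a replicate. Endocardial-like genes had a median log2 ratio of -0.11 between the running infarct and running libraries, and size factors by median of ratios put endocardial-like Chrm2 at log2 2.59 there. Within the endocardial-like clusters of resolution 2, chosen after seeing the data and not among the 12 alternatives, 3 of 8 endocardial-like pairs stayed past the line in both clusters and none of the 8 turned direction.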
